A study of Homo sapiens with 30 samples.

Results

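The genes described here are CDC40 and 4 other factors of the second step of pre-mRNA splicing and of mRNA release: SLU7, PRPF18, DHX38 and DHX8. They are 5 of the 61487 genes in the count table. CDC40 was chosen from its measured values, as the gene lowered by pladienolide B (PB) in both mutants of the SF3b pocket, and the other 4 were chosen for their place in the same step. RNA was sequenced from eHAP FNLS cells, a haploid human line that carries the cytosine base editor FNLS, in 5 genotypes with 3 libraries per genotype and treatment, 30 in all. The control line had received a guide without a target, and the mutants were PHF5A 2xTL (a 6-nt insertion at T40-L41), SF3B1 T1080I, SUGP1 E554K and SUGP1 G603N. All 5 were exposed to 2 nM PB, an inhibitor of the spliceosome, or to its solvent DMSO for 3 h before harvest. Libraries of a mutant came from 3 separate monoclonal lines, and those of control from 3 cultures of a single line. The model pooled the spread over all 10 groups, and the control cultures add only the spread between cultures of that line.

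Splicing joins exons through 2 successive reactions. In the first, the branch point adenosine attacks the 5' splice site, and in the second, the freed exon attacks the 3' splice site. The helicase DHX38 (Prp16 in yeast) remodels the spliceosome between these reactions, CDC40 (Prp17), SLU7 and PRPF18 (Prp18) act around the docking of the 3' splice site, and the helicase DHX8 (Prp22) releases the finished mRNA. PB binds far upstream in this pathway, in a pocket formed by SF3B1 and PHF5A within the SF3b complex that recognises the branch point. SUGP1, which has a G-patch, is a partner of SF3B1.

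CDC40 (ENSG00000168438) lies on chromosome 6 from 110180141 to 110254275 on the plus strand of hg38 (GENCODE 29), with up to 16 exons. Its start is 137 bases from that of WASF1, a regulator of actin assembly on the opposite strand. RefSeq places the starts of the pair further apart, and its windows of 250 bases before to 50 bases after each start (GRCh38.p14) do not overlap. Both are shown because CDC40 fell with PB while no change of WASF1 passed the test. The windows are chr6:110180177-110180476 (plus strand) for CDC40 and chr6:110179621-110179920 (minus strand) for WASF1, and capitals mark matches to the TATA box (TATAAA), the CCAAT box and the ETS element (CCGGAAGT) on either strand:
CDC40: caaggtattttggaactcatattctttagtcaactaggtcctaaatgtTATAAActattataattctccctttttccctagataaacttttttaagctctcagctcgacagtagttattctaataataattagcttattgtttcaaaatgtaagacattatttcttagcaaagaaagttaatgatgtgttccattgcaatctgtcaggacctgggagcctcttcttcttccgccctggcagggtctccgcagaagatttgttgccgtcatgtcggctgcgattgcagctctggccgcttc
WASF1: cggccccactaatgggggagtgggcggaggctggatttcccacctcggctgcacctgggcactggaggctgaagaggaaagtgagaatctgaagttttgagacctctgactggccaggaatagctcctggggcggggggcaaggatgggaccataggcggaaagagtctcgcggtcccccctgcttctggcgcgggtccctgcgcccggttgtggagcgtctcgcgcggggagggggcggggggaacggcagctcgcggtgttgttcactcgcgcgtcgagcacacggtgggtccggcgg
The CDC40 window held a single TATAAA, at base 49, and neither of the other motifs, and the WASF1 window held none of the 3. Over 35116 promoters of the same length, 11.5% held TATAAA, 34.6% held CCAAT and 4.14% held CCGGAAGT on either strand. The GC content was 39.3% in the CDC40 window and 67.3% in that of WASF1, against a median of 58.7% over all promoters, of which 10.7% were at or below CDC40. The CDC40 window begins after the GENCODE start of CDC40, so all of it lies within the GENCODE gene. Its TATAAA is therefore downstream of that start. These letter matches are a description of the windows, and no promoter element is read from them.

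Library totals ran from 3.16e+07 to 7.50e+07 counts, and between 691 and 2183 counts fell on CDC40 in each library. All 5 members were among the 31444 genes tested. The 6 haematopoietic markers examined stayed at or below 0.713 CPM (counts scaled to a library of 1e+06), while markers of other types were mixed. Of 6 mesenchymal markers, VIM and FN1 stood at 76.0 CPM or more in every library. COL1A1 ran from 3.25 to 20.8 CPM and THY1 from 0.344 to 10.8 CPM, while COL1A2 stayed at or below 1.26 CPM and PDGFRB at or below 0.587 CPM. Of 6 epithelial markers, KRT18 ran from 18.05 to 69.4 CPM and KRT8 from 0.533 to 86.2 CPM, and the other 4 stayed at or below 1.28 CPM. The third lines of both SUGP1 genotypes held 4 of the 5 libraries with the lowest mean r to the others, 0.942 to 0.954, together with the second DMSO library of SUGP1 G603N, and results that involve them were also computed without them. In bulk RNA, fewer cells and less RNA per cell cannot be told apart.

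Per kilobase of the length given in the table, DHX38 was the most abundant member at a mean of 18.7 CPM per kb over all libraries. SLU7 followed at 13.1, DHX8 at 8.73, PRPF18 at 6.30 and CDC40 at 4.59 CPM per kb. In DMSO alone CDC40 stood at 5.47 and PRPF18 at 5.76 CPM per kb.

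PB lowered CDC40 mRNA in the average of control and both SUGP1 genotypes, where its level was lower than in DMSO in 9 of 9 lines or cultures, as for 8.93% of genes. With the 6 lines of the pocket mutants, whose fall chose CDC40, the count was 15 of 15 (1.07% of genes), and nothing is read from it. In control, CDC40 stood at 35.3, 33.2 and 31.6 CPM in DMSO and at 25.8, 21.8 and 26.1 CPM with PB. In SUGP1 E554K it stood at 33.4, 31.0 and 28.7 CPM in DMSO and at 19.3, 26.3 and 25.2 CPM with PB. In SUGP1 G603N it stood at 30.8, 29.5 and 26.0 CPM in DMSO and at 23.3, 21.3 and 24.7 CPM with PB. The PB libraries lay below every DMSO library of their genotype in all 3, a pattern shared by 3.36% of tested genes, and the gap was narrowest in SUGP1 G603N, where the third line fell by only 0.07 on the log2 scale. Averaged over these genotypes, CDC40 fell by 0.38 ± 0.07 on the log2 scale (SE; edgeR quasi-likelihood test, adjusted p = 1.98e-04; 9 of 9 lines or cultures lower), a level 0.77 times that in DMSO. This average passed the test under every alternative run. No alternative fitted it without the pocket libraries, whose values chose CDC40 and which enter its estimate of the spread.

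Within single genotypes the outcome of the test for this fall depended on the setting. CDC40 fell by 0.44 ± 0.12 in control (edgeR, adjusted p = 0.0316; 3.34% of genes were called lower), but the call was lost without any 1 of the 6 control libraries (adjusted p from 0.0532 to 0.214). The log2 change was -0.39 ± 0.12 in SUGP1 E554K (edgeR, adjusted p = 0.0640) and -0.32 ± 0.12 in SUGP1 G603N (edgeR, adjusted p = 0.167), neither of which passed. With the line as a replicate block, SUGP1 E554K passed at an edgeR adjusted p of 0.0252. With only the groups compared, the edgeR adjusted p was 0.361 in SUGP1 E554K and 0.569 in SUGP1 G603N. With no low-count filter the edgeR values were 0.232 and 0.428 in that order. With 1 library left out, the edgeR adjusted p ran from 0.0343 to 0.327 in SUGP1 E554K and from 0.0386 to 0.404 in SUGP1 G603N. Without the third SUGP1 lines the values were -0.50 (edgeR, adjusted p = 0.0326) in SUGP1 E554K and -0.42 (edgeR, adjusted p = 0.0507) in SUGP1 G603N. The response did not pass a test of difference from control in either SUGP1 genotype (edgeR, log2 difference 0.05, 95% interval -0.30 to 0.40, and 0.13, interval -0.23 to 0.48).

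**Figure D1:**
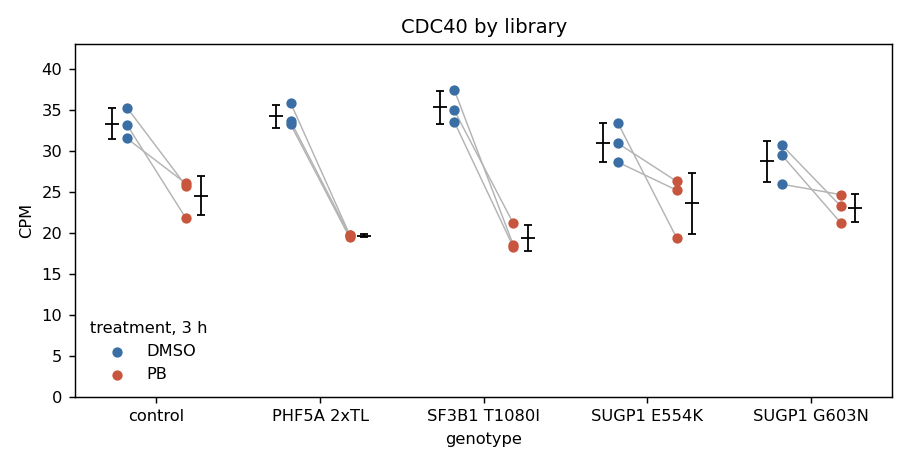
CDC40 level in CPM (vertical axis) in each of the 30 libraries, by genotype and treatment; points are libraries and black marks are group means with SD and grey lines join libraries of equal number. PB libraries sit between 18.3 and 26.3 CPM and DMSO libraries between 26.0 and 37.5 CPM, with no overlap inside any genotype (0.0922% of genes, a share that counts the pocket mutants, whose fall chose CDC40).

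The pocket mutants, whose values chose CDC40, are given as a description without a test. In PHF5A 2xTL, CDC40 stood at 33.3, 35.9 and 33.7 CPM in DMSO and at 19.5, 19.8 and 19.7 CPM with PB. In SF3B1 T1080I it stood at 33.6, 35.0 and 37.5 CPM in DMSO and at 18.3, 21.2 and 18.6 CPM with PB. The log2 changes were -0.80 and -0.87, so about 0.57 and 0.55 times the level in DMSO. The PB libraries had an SD of 0.190 CPM in PHF5A 2xTL and 1.60 CPM in SF3B1 T1080I. With edgeR, CDC40 was the only gene called in either contrast (0.00318% of genes each), and this count is what the choice of CDC40 rests on. In SF3B1 T1080I, DESeq2 called 3 genes, edgeR with the line as replicate block 5, and edgeR with no low-count filter 2. CDC40 was no longer called without any 1 of the 6 libraries in PHF5A 2xTL, and without any 1 of 4 of the 6 in SF3B1 T1080I. The gene of next lowest p was COG2 in PHF5A 2xTL, at a log2 change of -0.60 (edgeR adjusted p = 1), and PRPF39 in SF3B1 T1080I, at 0.58 (edgeR adjusted p = 0.163), neither of them close to the threshold. Both were picked here after their values were seen.

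Ordered by group mean, the 5 DMSO groups came first, from 35.3 CPM in SF3B1 T1080I to 28.8 CPM in SUGP1 G603N. The PB groups followed at 24.6 CPM in control, 23.6 in SUGP1 E554K, 23.1 in SUGP1 G603N, 19.7 in PHF5A 2xTL and 19.4 in SF3B1 T1080I. Between neighbours in this order the libraries overlapped, except between SUGP1 G603N with PB and PHF5A 2xTL with PB. The values of the pocket mutants chose CDC40, so nothing is read from this gap or from their place in the order. In DMSO neither SUGP1 genotype differed from control in CDC40 beyond the test, with log2 differences of -0.11 in SUGP1 E554K and -0.21 in SUGP1 G603N. The differences were 0.04 in PHF5A 2xTL and 0.08 in SF3B1 T1080I, a description since the DMSO libraries of the pocket mutants entered the choice of CDC40.

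DHX38, the helicase that acts before the second reaction, was higher on average with PB outside the pocket mutants. In control it stood at 83.0, 103.7 and 140.5 CPM in DMSO and at 116.9, 133.3 and 137.7 CPM with PB. In SUGP1 E554K it stood at 110.8, 125.4 and 92.1 CPM in DMSO and at 140.2, 137.6 and 104.0 CPM with PB. In SUGP1 G603N it stood at 137.6, 108.3 and 118.0 CPM in DMSO and at 138.9, 160.9 and 152.2 CPM with PB. The groups overlapped in control and SUGP1 E554K but not in SUGP1 G603N, where 6.62% of genes had PB libraries wholly above DMSO. Averaged over these genotypes DHX38 rose by 0.26 ± 0.09 (edgeR, adjusted p = 0.0428), and no single genotype passed. This call was lost without any 1 of 14 of the 18 libraries, down to 0.18 (edgeR, adjusted p = 0.171) without the first control DMSO library. In the pocket mutants DHX38 ran from 98.0 to 114.9 CPM in DMSO and from 90.6 to 120.5 CPM with PB, and the averaged log2 change was 0.00 (95% interval -0.22 to 0.23). The difference between the pocket mutants and the other genotypes did not pass (edgeR, -0.26, adjusted p = 0.473).

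PRPF18, which acts with SLU7 at the 3' splice site, was the least counted member, with 341 to 818 counts per library. In SUGP1 E554K it stood at 11.3, 7.59 and 9.24 CPM in DMSO and at 15.1, 13.4 and 14.2 CPM with PB. All PB libraries of this genotype lay above its DMSO libraries, as for 8.06% of genes. The rise was 0.60 ± 0.17 (edgeR, adjusted p = 0.0469; 1.24% of genes were called higher), and it was lost with the 2 groups fitted alone (adjusted p = 0.241), without the third SUGP1 lines (adjusted p = 0.0913) and without 5 of the 6 single libraries (up to 0.309 without the second DMSO line). In control PRPF18 stood at 10.5, 10.8 and 14.5 CPM in DMSO and at 14.1, 13.6 and 13.6 CPM with PB, which overlapped. In SUGP1 G603N it stood at 10.3, 10.9 and 10.4 CPM in DMSO and at 12.6, 11.6 and 9.89 CPM with PB, which overlapped too. Averaged over the 3 genotypes PRPF18 rose by 0.31 ± 0.10 (edgeR, adjusted p = 0.0320), a call lost without any 1 of 12 of the 18 libraries (up to adjusted p = 0.123 without the second SUGP1 E554K DMSO line). The response in SUGP1 E554K did not pass a test of difference from control (edgeR, 0.39, 95% interval -0.11 to 0.89). In the pocket mutants PRPF18 ran from 8.77 to 12.8 CPM in DMSO and from 10.1 to 13.4 CPM with PB, with overlap in both.

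**Figure D2:**
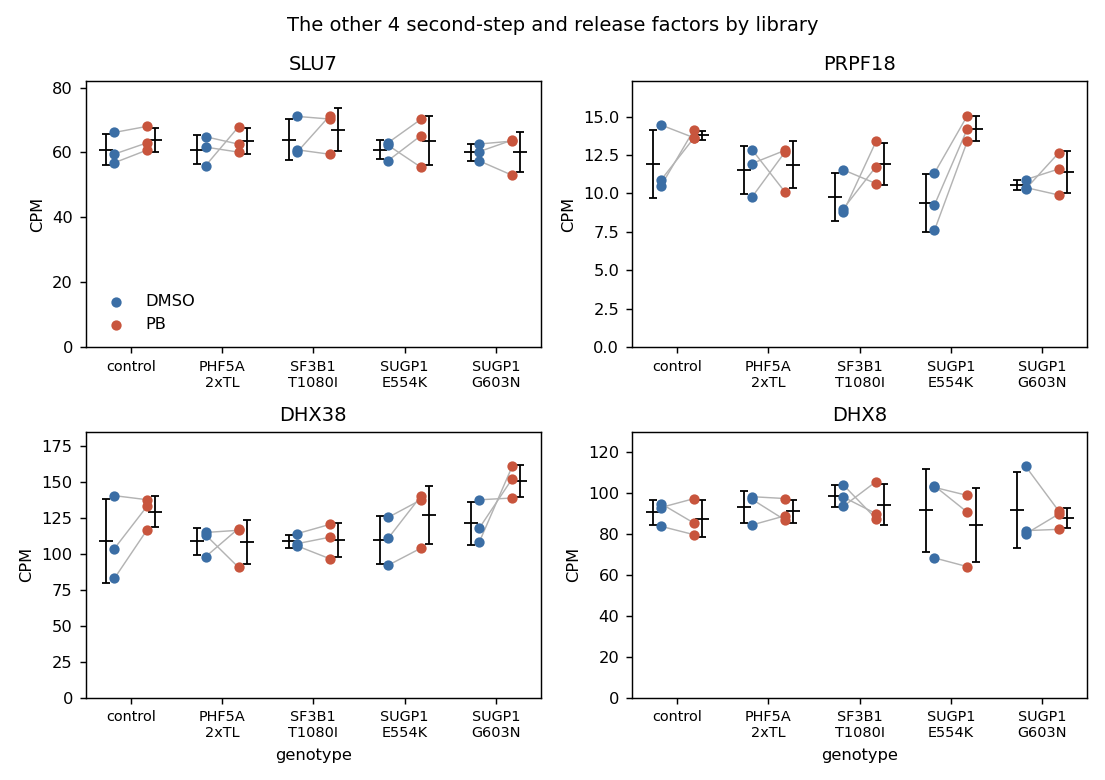
Levels in CPM (vertical axes) of SLU7, PRPF18, DHX38 and DHX8 in each of the 30 libraries, by genotype and treatment; black marks are group means with SD and grey lines join libraries of equal number. SLU7 and DHX8 overlap between treatments in every genotype, and PRPF18 in SUGP1 E554K and DHX38 in SUGP1 G603N do not.

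SLU7, which helps select the 3' splice site, was the steadiest member. It ran from 55.9 to 71.1 CPM over the 15 DMSO libraries (median 60.8) and from 52.96 to 71.3 CPM with PB (median 63.5), and the treatments overlapped in every genotype. The averaged log2 change outside the pocket mutants was 0.04 (95% interval -0.09 to 0.18) and in the pocket mutants 0.06 (interval -0.10 to 0.23). DHX8, the release helicase, ran from 68.4 to 113.2 CPM in DMSO (median 95.0) and from 64.1 to 105.8 CPM with PB (median 89.8), again with overlap in every genotype. Its averaged changes were -0.08 (interval -0.26 to 0.11) and -0.05 (interval -0.27 to 0.17). Spread between lines was wider for DHX8: the third SUGP1 E554K line stood at 68.4 CPM in DMSO and 64.1 CPM with PB, while the first stood at 102.9 and 99.0 CPM.

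**Figure D3:**
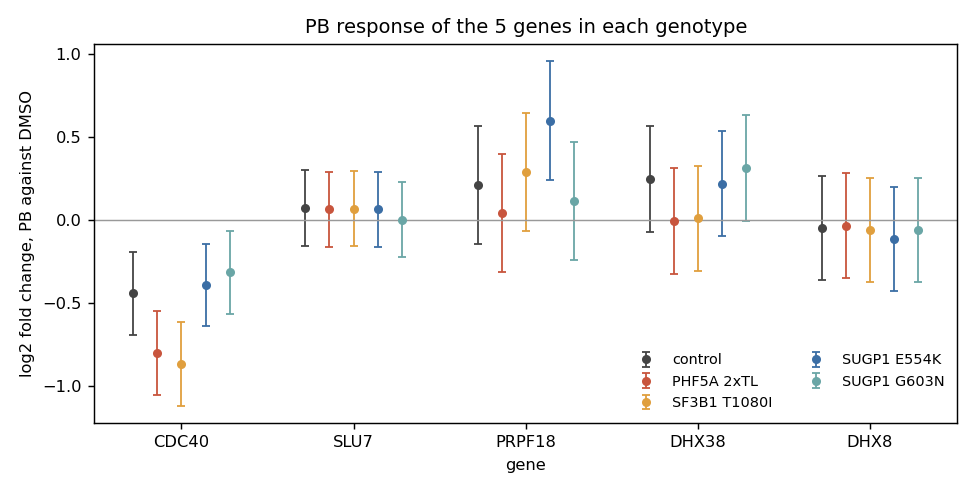
Log2 change with PB against DMSO (axis in log2 units) of the 5 members in each genotype, from the edgeR model, with 95% intervals. CDC40 lies from -0.32 to -0.44 in control and the SUGP1 genotypes, and at -0.80 and -0.87 in the pocket mutants, whose values chose it. SLU7 and DHX8 stay between -0.11 and 0.07.

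By count, 1 of the 5 members was called in control (4.44% of all genes), 1 in SUGP1 E554K (4.39%), 0 in SUGP1 G603N (3.85%) and 3 in the average of these genotypes (18.5%). In SUGP1 G603N, 1 member, CDC40, had an unadjusted p under 0.05 in edgeR (16.1% of genes), and DESeq2 called 0. Apart from CDC40, 0 of the other 4 members were called by edgeR or DESeq2 in either pocket mutant, and 0 had an unadjusted p under 0.05, against 1.29% of genes in PHF5A 2xTL and 0.875% in SF3B1 T1080I.

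In DMSO, 0 members were called in any mutant against control by edgeR or DESeq2. The shares of all genes called were 0.00954% in PHF5A 2xTL, 0% in SF3B1 T1080I and SUGP1 E554K, and 0.0127% in SUGP1 G603N. No member had an unadjusted p under 0.05 there, against 4.57%, 3.73%, 3.85% and 5.04% of genes in that order. For CDC40 in the pocket mutants these counts are a description, since their DMSO libraries entered its choice. SLU7, PRPF18, DHX38 and DHX8 were not called in any difference of a PB response from that of control, by edgeR or DESeq2, where 0.274% of genes were called in PHF5A 2xTL, 0.321% in SF3B1 T1080I and 0% in both SUGP1 genotypes. None of these 4 had an unadjusted p under 0.05 there either, against 6.33%, 6.72%, 2.06% and 2.8% of genes.

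Among 60 other spliceosome genes from 6 lists, 14 were higher and 7 lower with PB in the average of control and both SUGP1 genotypes, against 7.6% of all genes called higher and 10.9% called lower. The 60 were not matched to all genes in abundance, so these shares are no test of the lists. The median log2 change of the 60 was 0.08, against 0.03 over all genes. In each pocket mutant 0 of 60 were called by edgeR or DESeq2, against 0.00318% of all genes called by edgeR. In edgeR 0 of 60 had an unadjusted p under 0.05, against 1.29% of all genes in PHF5A 2xTL and 0.875% in SF3B1 T1080I. The exchange factors of the catalytic and post-catalytic complexes held 6 higher and 3 lower of 16. Among them DHX35, a helicase, fell by 1.06 ± 0.11 (edgeR, adjusted p = 9.39e-08) and PPWD1, a peptidyl-prolyl isomerase, fell by 0.39 ± 0.06 (edgeR, adjusted p = 3.59e-05). ZNF830 rose by 0.47 and SDE2 by 0.31.

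DHX35 stood at 15.9 ± 0.77 CPM in control DMSO and 7.51 ± 1.32 CPM in control PB (SD, n = 3), and at 18.2 ± 2.54 against 15.6 ± 1.20 CPM in PHF5A 2xTL. Its change in the pocket mutants differed from that in the other genotypes by 0.87 ± 0.18 (edgeR, adjusted p = 0.00500), and that of PPWD1 by 0.39 ± 0.10 (edgeR, adjusted p = 0.0251; lost without any 1 of 5 of the 30 libraries). These were the 2 of 60 called in that comparison by edgeR (3 by DESeq2), against 2.9% of genes. CDC40 had the opposite sign there, -0.45, which is a description since its pocket values chose it.

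Of 18 genes of the Prp19 complex, a scaffold of the active spliceosome, and its partners, 5 were higher and 2 lower in the same average. BCAS2 fell by 0.31, while BUD31 rose by 0.34, CDC5L by 0.25 and CCDC12 by 0.48. Of 11 activation and first-step factors 2 rose, SRRM1 by 0.38 and CWC15 by 0.26. Of 6 release and disassembly factors 2 fell, CWF19L2 by 0.34 and GCFC2 by 0.23. The GCFC2 call was lost without any 1 of 4 of the 18 libraries. Of 5 exon junction core genes MAGOHB rose by 0.22, a call lost without any 1 of 6 of them. Of 4 genes of the U5 core 0 were called by edgeR or DESeq2, against 18.5% of all genes called by edgeR, with changes from -0.18 to 0.01. In edgeR 1 of the 4 had an unadjusted p under 0.05, against 30.4% of all genes.

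**Figure D4:**
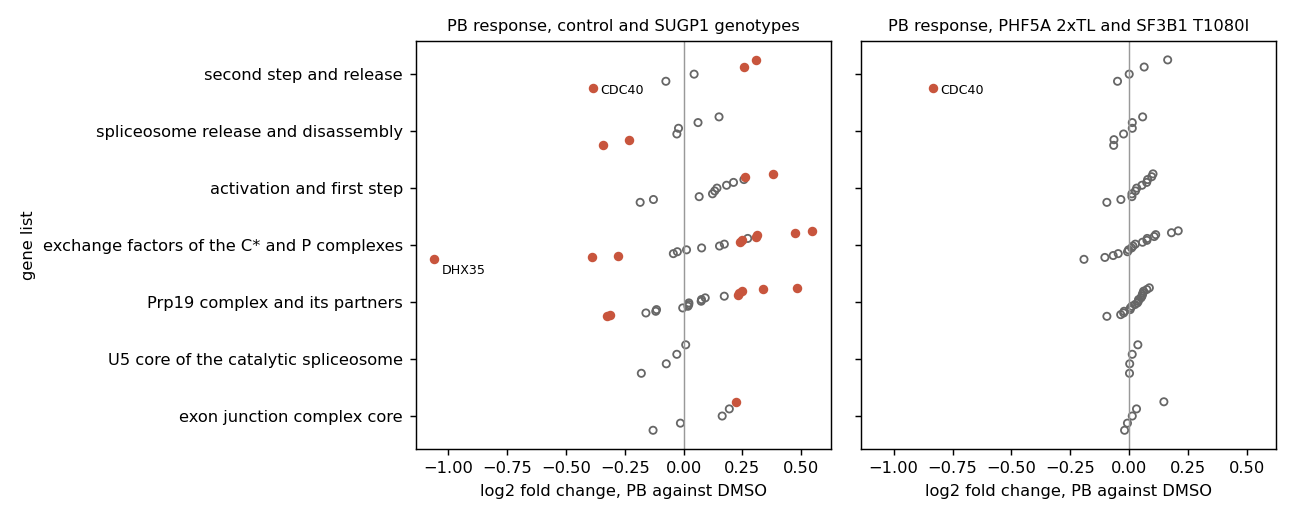
Log2 change with PB of each tested gene of the 6 spliceosome lists and of the members, as averaged over control and both SUGP1 genotypes (left) and over the pocket mutants (right). Filled points had an adjusted p under 0.05, which for CDC40 in the pocket mutants is what chose it. DHX35 lies lowest in the first average at -1.06, and CDC40 lowest in the second at -0.83.

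Of the 7 genes tested that overlap a member or start near one, 0 were called by edgeR in any PB or DMSO comparison. In these comparisons 0% to 4.44% of all genes were called. Of 63 neighbour values 2 had an unadjusted p under 0.05 in edgeR, against 0.875% to 16.2% of all genes by comparison. WASF1, the divergent neighbour of CDC40, stood at 109 ± 5.23 CPM in control DMSO and 114 ± 1.89 CPM with PB (SD, n = 3), and its log2 changes over the 5 genotypes ran from -0.04 to 0.19, none of which passed. METTL24 overlaps the 3' part of CDC40 on the opposite strand and stayed at or below 0.572 CPM in every library. The sources used here do not say whether strand was used in counting, and reads from overlapping genes are therefore uncertain. This also touches TXNL4B and PMFBP1 over DHX38, ETV4 within DHX8, and RPL6P24 within PRPF18.

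Over the 30 libraries, the genes whose log2 CPM followed CDC40 most closely were COG2 (Pearson r = 0.759), RBM5 (0.726), SRSF6 (0.725), NUP54 (0.704) and PARN (0.698), out of 11997 genes compared. These libraries share genotypes and treatments and include the pocket mutants, whose values chose CDC40, so the values are a description. COG2, a subunit of a Golgi tethering complex, changed by -0.78 in control, -0.60 in PHF5A 2xTL, -0.56 in SF3B1 T1080I, -1.01 in SUGP1 E554K and -0.64 in SUGP1 G603N. The COG2 changes in the pocket mutants were not called by edgeR, while those in control and both SUGP1 genotypes were. For DHX38 the closest were EDC4 (0.911) and BAP1 (0.904), for DHX8 SMG1 (0.876) and NSD1 (0.869), for PRPF18 HNRNPDL (0.718) and POLR1D (0.717), and for SLU7 HEATR6 (0.595) and LARP7 (0.585). Among the members themselves, r ran from -0.37 between CDC40 and PRPF18 to 0.34 between DHX38 and PRPF18.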

How the data were processed

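Poly(A)-selected RNA of 30 cultures was sequenced, per the labels' protocols. The submitters' processing notes name STAR, SAMtools 1.10, UMI-tools and the build hg38. The counting step and its use of strand are not described in the sources at hand. The authors deposited a table of estimated counts (expected counts, not normalized) for 61487 genes, of which 65.5% of values above 0 are not whole, and a length per gene. Symbols were matched for 61369 identifiers, and coordinates were taken from GENCODE 29 for 58312.

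Counts were rounded to whole numbers. In edgeR 4.0.16 (R 4.3.3), filterByExpr over the 10 groups kept 31444 genes, TMM set the library scale, and 1 quasi-likelihood model covered all 30 libraries. P-values were adjusted by Benjamini-Hochberg over all genes, and a gene was called under 0.05. Standard errors were derived from the F value. CPM are TMM-scaled, and likeness used log2 CPM (prior count 2) of genes averaging at least 4 CPM. The model was tested on simulated data. Members, gene lists and tests were chosen with earlier results of these data known. Named genes are the members, up to 4 called genes per list and contrast by lowest p, the 5 genes most like CDC40 and the 2 most like each other member, and neighbours that overlap a member or start within 1 kb. Per the labels, a mutant's DMSO and PB libraries of equal number are 1 clone, and libraries of equal number deviated together (r from 0.212 to 0.837 over 11998 genes), so PB contrasts were also fitted with the line as a replicate block. Other alternatives were DESeq2 1.42.0, RLE size factors, no low-count filter, only the groups compared, and each library left out. The fit of only the groups compared was not run for contrasts that average genotypes.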

Additional observations from a re-analysis of the deposited data

How the results depend on the processing

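The average fall of CDC40 over control and both SUGP1 genotypes passed under every alternative, with log2 changes from -0.45 without the third SUGP1 lines (chosen after seeing the data) to -0.34 without the first SUGP1 E554K PB library, and an edgeR or DESeq2 adjusted p of at most 0.00146. None of these alternatives fitted that average without the pocket libraries, which share its estimate of the spread. With that average, 3 members were called, and 1 without the low-count filter. In control the count of members called fell from 1 to 0 with RLE size factors and with no low-count filter. It fell to 0 in PHF5A 2xTL with no filter or only the groups compared, in SF3B1 T1080I with only the groups compared, and in the difference between pocket mutants and the rest with no filter. In SUGP1 E554K it was 0 with no filter or only the groups compared, and 2 with DESeq2 and with the line as replicate block, where CDC40 joined PRPF18. With 1 library left out, the counts ran from 0 to 0 in control and PHF5A 2xTL, from 0 to 1 in SF3B1 T1080I, both SUGP1 genotypes and the difference, and from 1 to 3 in the average of control and SUGP1. The block changed no other call of a member. In mutant against control, where equal numbers mark no shared clone, the additive replicate block changed no call.

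Small changes that were not called changed sign. Of 112 log2 changes examined, 39 did so under some alternative, 140 times in all and 114 of them with 1 library left out, and 0 of the 39 were called. Without the third SUGP1 lines, the CDC40 response of SUGP1 E554K minus control was -0.069 and that of WASF1 in SUGP1 G603N -0.030. With the line as replicate block, DHX38 averaged over the pocket mutants was -0.0047 (-0.0023 with no filter) and SLU7 in SUGP1 G603N -0.0038 (-0.0030 with only the groups compared), and DHX38 in PHF5A 2xTL with only the groups compared was 0.0074. With 1 library left out, the CDC40 response of SUGP1 E554K minus control ran from -0.041 to 0.18. DHX38 ran from -0.040 to 0.048 in the pocket average, -0.080 to 0.091 in PHF5A 2xTL and -0.072 to 0.084 in SF3B1 T1080I. DHX8 ran from -0.13 to 0.014 in control, -0.10 to 0.013 in PHF5A 2xTL, -0.33 to 0.051 in SUGP1 E554K, -0.22 to 0.11 in SUGP1 G603N and -0.028 to 0.12 in the difference between pocket mutants and the rest. PRPF18 ran from -0.068 to 0.13 in PHF5A 2xTL and -0.0090 to 0.20 in SUGP1 G603N. SLU7 ran from -0.013 to 0.15 in SUGP1 E554K, -0.10 to 0.085 in SUGP1 G603N, -0.0027 to 0.075 in the average of control and SUGP1 and -0.010 to 0.084 in the difference. WASF1 ran from -0.15 to 0.074 in PHF5A 2xTL, -0.033 to 0.21 in SF3B1 T1080I and -0.11 to 0.21 in SUGP1 G603N. The cause of these changes was not tested.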
